A study of Mus musculus with 5 samples.

Results

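F-box genes encode the substrate-binding subunits of a large class of ubiquitin ligases, and here they were followed in ribosome-bound RNA of dopamine receptor D2 (Drd2) neurons of the mouse central amygdala (CeA). They were chosen by name: every row of the deposited table whose gene name starts with Fbxo, Fbxl or Fbxw followed by a digit, which gave 58 of the 15093 rows. These 58 rows carry 57 gene names (33 Fbxo rows, 17 Fbxl rows and 8 Fbxw rows), because Fbxo31 is listed under 2 identifiers. The family was picked because the difference of Fbxo32 between the groups was already known, so Fbxo32 is described below without a test. Adult Drd2-TRAP mice, a cross of the BAC transgenic Drd2-Cre line with the Rosa26 fs-TRAP line, made up every group and carry EGFP-tagged ribosomal protein L10a wherever Cre had been active under the Drd2 promoter. The fear conditioned group (3 libraries) had been given tone and foot shock pairings, and the control group (2 libraries) had not been shocked. The labels call the controls home cage mice and place the collection after extinction, whereas the study's results text describes collection 2 h after conditioning and controls given the tone alone, and its methods abbreviate the controls as HC. Each library pooled the bilateral CeA punches of 3 animals, so the spread between libraries is a spread between pools. The sex of these animals is not given in the sources used here.

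An F-box protein binds Skp1 through its F-box, and Skp1 joins it to the cullin Cul1 and the RING protein Rbx1, which together form an SCF (Skp1, cullin, F-box) ligase. The rest of the F-box protein decides what is ubiquitinated: Fbxw proteins bind through WD40 repeats, Fbxl proteins through leucine-rich repeats, and Fbxo proteins through other domains. In neurons, F-box proteins are known for the turnover of synaptic, cytoskeletal and clock proteins. Fbxo32, also called atrogin-1 or MAFbx, is best known from skeletal muscle, where FoxO transcription factors induce it during atrophy.

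The fear conditioned libraries held 21070588, 25022225 and 19988438 recovered reads on genes, and the control libraries 27937520 and 19605318. Control replicate 2 had no read on 17.8% of the listed genes and control replicate 1 on 6.47%, against 1.05 to 2.31% in the fear conditioned libraries. Control replicate 2 alone held the lowest value of the 5 libraries for 31 of the 58 F-box members and the highest for 16. Of all genes it did so for 42.8% and 30.3%. Members at 0 both there and in another library, such as Fbxo32, are not among the 31. A library's floor was set at 3 reads, worth 0.10 to 0.158 CPM (counts per 1000000 of an effective library size), and 11 members were at or under that floor in control replicate 2, against 22% of all genes. In control replicate 1 the members at or under it were 5, against 7.8% of all genes. Values below are CPM, in the order of replicates 1, 2 and 3 of the fear conditioned group and then replicates 1 and 2 of the control group.

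Fbxo32 (ENSMUSG00000022358) was read in every fear conditioned library and in neither control library. Its values were 5.03, 13.5 and 13.5 CPM after fear conditioning and 0 and 0 CPM in the controls, which are 106, 323 and 271 reads against none. The groups did not overlap, and the first fear conditioned library was the lowest of its group. Taken against the floor of 3 reads per control library, the mean of the fear conditioned libraries (10.6 CPM ± 4.87, SD, n = 3) was at least 82.4-fold higher. The fitted difference was 3.43 on the log2(CPM + 1) scale (SE 0.64), and Fbxo32 passed the filter on low values (a mean of at least 1 CPM). Per kilobase of its deposited length, Fbxo32 ranked 40 of 58 by mean level over the fear conditioned libraries, and 45 of 58 over all 5 libraries, where the controls at 0 lower its mean. In fear conditioned replicates 1, 2 and 3, the share of listed genes with a lower value per kilobase than Fbxo32 was 35.3%, 53.2% and 53.2%.

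Fbxw4, a WD40 member whose human counterpart was named after a limb malformation, had nearly the same pattern. Its values were 8.91, 6.87 and 8.34 CPM after fear conditioning and 0.033 and 0 CPM in the controls. That is 521 reads in all against a single read in control replicate 1, a ratio of 391 between the groups' pooled read rates (reads over summed effective library sizes), with an exact 95% counting interval of 69.8 to 15456 (counting error only, for reads that were not tagged as molecules). On the log2(CPM + 1) scale the difference was 3.15 (SE 0.52). Fbxw4 passed the filter on low values only through the fear conditioned libraries, so it had to differ and is given no p. Fbxo32 and Fbxw4 were the only members with 3 reads or fewer in both controls and a mean of at least 5 CPM after fear conditioning, 2 of 49 members at that level. Of all genes at that level, 0.326% did so, 34 of 10445. No use is made of that share, since Fbxo32 fixed the choice of the family.

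The other 3 members at the floor in both controls were rare everywhere and fell below the filter on low values. Every listed gene is above 1 CPM in at least 1 library. A gene at the floor in 1 group thus had to be higher in the other to be listed. The direction of these 3 and of Fbxl7 was therefore fixed, and their values and bounds are descriptions only. Fbxo15, known from embryonic stem cells, was at 1.61, 1.21 and 0.348 CPM after fear conditioning and at 0 in both controls, at least 8.17-fold higher against the floor. Fbxo40, a muscle ubiquitin ligase for the insulin receptor substrate IRS1, was at 1.61, 0 and 0.248 CPM and at 0 in both controls, at least 4.80-fold higher. Fbxo40 rests mainly on 1 library. Fbxo5, the inhibitor of the anaphase-promoting complex also called Emi1, was at 0, 0.625 and 1.04 CPM against 0.033 and 0 CPM, a ratio of pooled read rates of 27.0 (exact 95% counting interval 4.54 to 1095). In all, 4 members besides Fbxo32 were at or under the floor in both controls, and 4.6% of all genes were. In the opposite direction, 1 member was at or under the floor in every fear conditioned library, against 1.56% of all genes. That was Fbxl7, a member linked to mitotic kinase turnover, at 0.095, 0.083 and 0.099 CPM against 4.31 and 0 CPM, so its control level came from 1 library.

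**Figure D1:**
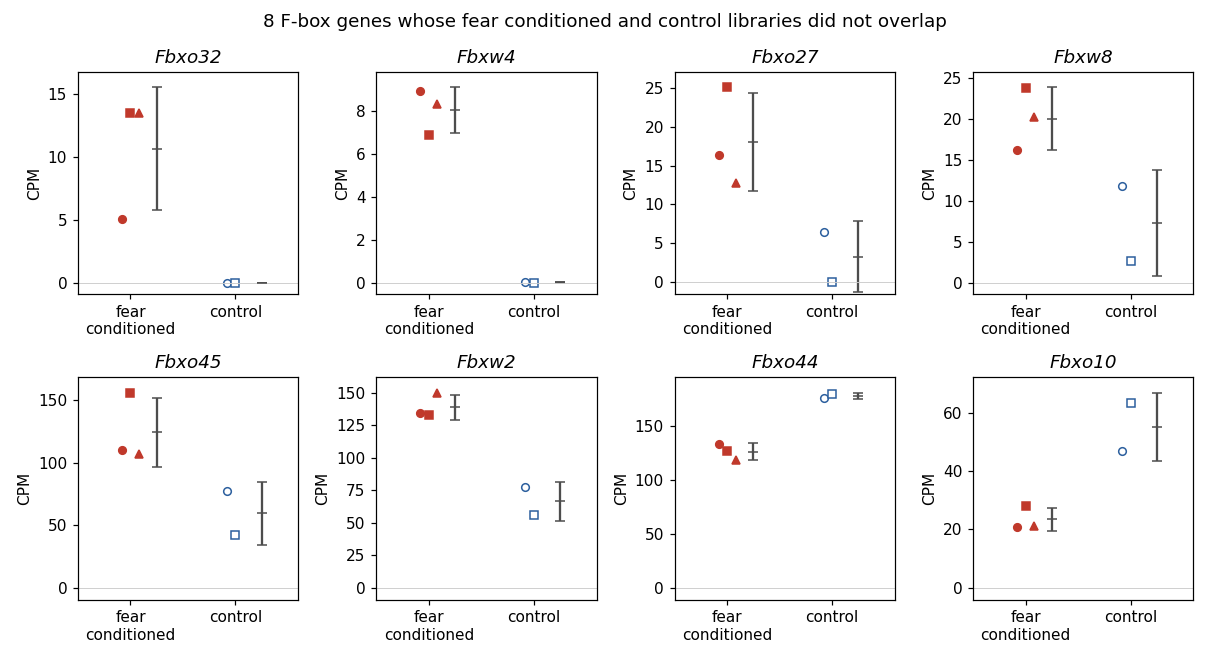
CPM (y axis) of 8 F-box genes in each library, fear conditioned (red, filled) and control (blue, open), with circle, square and triangle for replicates 1, 2 and 3; the grey bar beside each group is its mean and SD. Fbxo32 and Fbxw4 lie at or next to 0 in both controls, and Fbxo44 and Fbxo10 are the panels in which the controls are higher.

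Across the family, 53 of the 58 members passed the filter and were tested. By limma with Benjamini-Hochberg adjustment over 13560 genes, no member passed an adjusted p under 0.05 with a log2 fold change over 0.5 in size, and neither did any other gene (0%). Counted over members with a mean of at least 1 CPM in each group of the libraries kept, Fbxo32 left out, limma called 28 of 47 (59.6%) without control replicate 1 beside 52% of the genes at that level, and 9 of 51 (17.6%) without control replicate 2 beside 22.8%, with the remaining control assumed to vary like the fear conditioned libraries. With all libraries, the smallest adjusted p of a member other than Fbxo32 was 0.197. Of the tested members, 3 (Fbxo32, Fbxw4 and Fbxo17) had a control mean under 1 CPM and passed the filter only through the fear conditioned libraries. These 3 are left out of the counts of p values that follow for the family, and the all-gene shares are given both over all genes tested and over the 12337 genes with a mean of at least 1 CPM in both groups. With an unadjusted limma p under 0.05, 6 members were higher after fear conditioning, against 9.49% of all genes tested and 7.26% of those at that level in both groups. The 6 were Fbxo27, Fbxw8, Fbxl15, Fbxo42, Fbxo45 and Fbxw2, of which Fbxl15, Fbxo42 and Fbxw2 are named here after their values were seen. Lower members were 2, Fbxo10 and Fbxo44, against 7.32% and 7.54%. The edgeR quasi-likelihood test on recovered reads likewise called no member and no gene (0%), with 5 members at an unadjusted p under 0.05 against 16.6% and 13.4%. Fbxo15, at 0 reads in both controls, is left out of that count too. DESeq2 called 2 members (Fbxw2 higher, Fbxo10 lower), against 7.96% and 6.55%. For a single gene, the exact two-sided permutation test over 3 against 2 libraries cannot give a p below 0.1.

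Counted by overlap, 13 of 58 members (22.4%), Fbxo32 among them, had every fear conditioned library above both controls, against 21.6% of all genes. Another 6 members (10.3%) had every fear conditioned library below both, against 14.8%. Both shares were near those of all genes. The log2 fold change was above 0 for 38 of 58 members (65.5%), or 37 besides Fbxo32, against 53.6% of all genes. Its median was 0.32 over the members and 0.08 over all genes. Both include Fbxo32, which fixed the choice of the family. They also include Fbxw4, Fbxo15, Fbxo40 and Fbxo5, which were above 1 CPM only after fear conditioning. No trait of the family is read from them. The median of the members depended on which control was kept: it was 0.12 without control replicate 2 and 0.57 without control replicate 1, beside -0.02 and 0.28 over all genes. Within the family the median was 0.41 for Fbxo, 0.18 for Fbxl and 0.77 for Fbxw genes, and without control replicate 2 it was 0.16, -0.11 and 0.084, so no order of the 3 is read from it. Of 32 F-box rows followed singly, the difference changed sign or shrank by over 1.5 times for 19 without control replicate 2 and for 5 without control replicate 1.

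**Figure D2:**
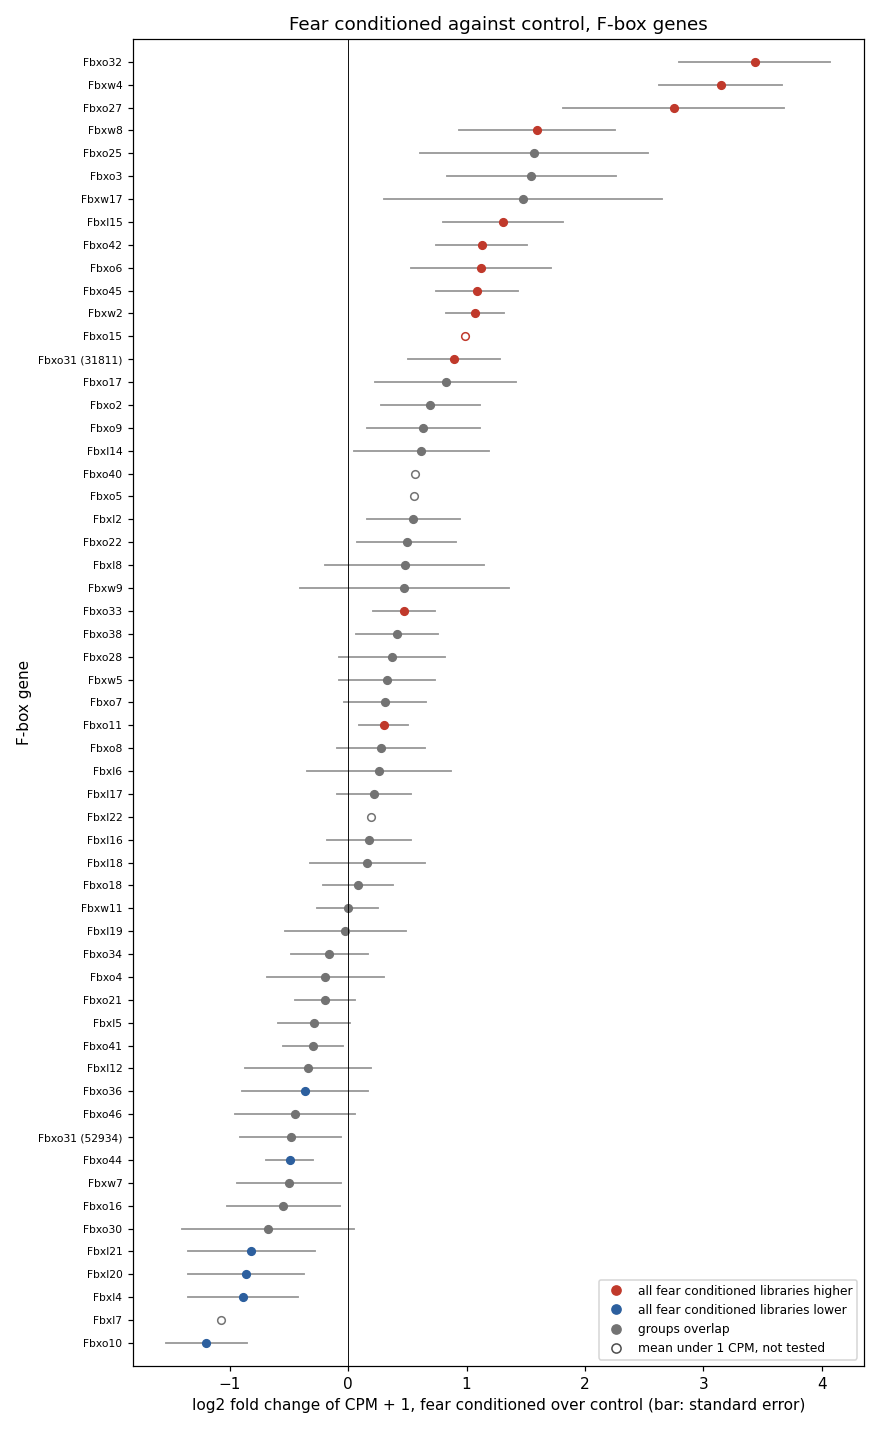
Log2 fold change of CPM + 1, fear conditioned over control (x axis), of 57 of the 58 F-box rows (y axis, sorted), with bars for the standard error from limma. Red and blue points mark the 13 and 6 rows whose groups do not overlap, grey points overlap, and open points are the 5 rows with a mean under 1 CPM that were not tested.

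The level of the family was dominated by Fbxl16, a neuronal leucine-rich repeat member that is unusual in not forming an active SCF ligase. Its values were 1275, 1578 and 1579 CPM in the fear conditioned group and 918 and 1846 CPM in the controls, and made up 23.3 to 40.5% of the summed CPM of all members in a library. The controls lay on both sides of the fear conditioned libraries, and the fitted difference was 0.17 (SE 0.35, adjusted p = 0.822 by limma). Per kilobase, Fbxl16 had a mean of 414.5 CPM ± 102 (SD over 5 libraries), above 99.2% of the listed genes. The next members per kilobase were the Fbxo31 row ENSMUSG00000031811 at 60.2 ± 21.9, Fbxo9 (a regulator of mTOR signalling) at 59.6 ± 20.9, Fbxo21 at 51.4 ± 8.83 and the Fbxo31 row ENSMUSG00000052934 at 48.1 ± 23.0. Those 4 lay within their spread of each other, and all lay below Fbxl16 in each library. At the other end, 47 members were at 1 CPM or more in every library and 35 at 10 CPM or more.

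**Figure D3:**
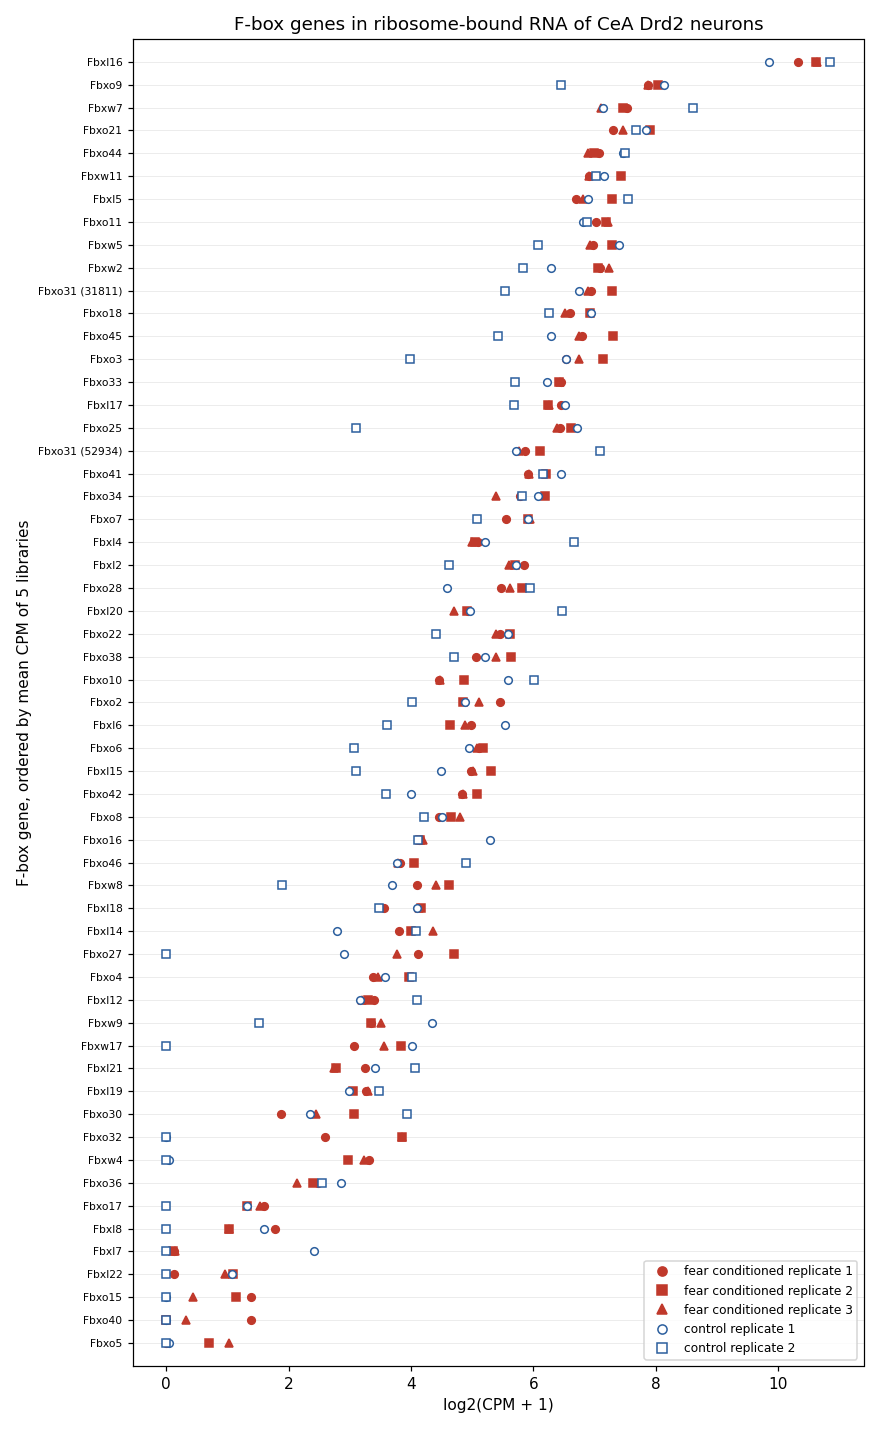
Level of each of 57 of the 58 F-box rows (y axis, ordered by mean CPM) in each library as log2(CPM + 1) (x axis), fear conditioned in red filled symbols and control in blue open symbols. Fbxl16 stands alone at the top, the fear conditioned symbols lie close together in most rows, and control replicate 2 (open square) is often the outermost point.

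Among the members present in both groups, the smallest unadjusted p values were in mid-level genes. Fbxw2, a WD40 member and ligase for the placental factor GCM1, was at 134, 133 and 150 CPM after fear conditioning and 77.2 and 55.7 CPM in the controls. It is singled out here after its values were seen. Its groups did not overlap, with means of 139 ± 9.57 (SD, n = 3) and 66.5 ± 15.2 CPM (SD, n = 2) and a difference of 1.07 (SE 0.24, adjusted p = 0.197 by limma). Fbxo10, which targets the survival protein Bcl2, was at 21.0, 28.1 and 21.2 CPM after fear conditioning and at 46.9 and 63.4 CPM in the controls, a difference of -1.20 (SE 0.34, adjusted p = 0.217 by limma). Both controls were higher than all 3 fear conditioned libraries.

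Fbxo2, Fbxo6, Fbxo17, Fbxo27 and Fbxo44 form the F-box subgroup with a sugar-binding domain, known for recognising glycoproteins on their way out of the endoplasmic reticulum. In the gene order of RefSeq (GRCm38.p6), Fbxo6, Fbxo44 and Fbxo2 are neighbours on chromosome 4, and Fbxo27 and Fbxo17 on chromosome 7. All 5 were listed, 2 with every fear conditioned library higher and 1 lower, where all genes gave 21.6% and 14.8%. Fbxo44 was the most abundant by CPM, at 133, 126 and 118 CPM after fear conditioning and 176 and 180 CPM in the controls. The 2 control values were close together and above all fear conditioned values, and the difference was -0.50 (SE 0.20, adjusted p = 0.293 by limma). Its neighbour Fbxo6 lay on the other side, at 33.7, 35.2 and 32.9 CPM against 29.9 and 7.38 CPM (1.12, SE 0.59, adjusted p = 0.387). The size of the Fbxo6 difference came from control replicate 2, without which it was 0.18. Fbxo2, which is rich in brain, was at 42.9, 27.7 and 33.7 CPM against 28.5 and 15.1 CPM, and its groups overlapped (0.69, SE 0.42, adjusted p = 0.439, and 0.26 without control replicate 2).

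Fbxo27 had the largest difference of the subgroup. Its values were 16.4, 25.1 and 12.7 CPM after fear conditioning and 6.48 and 0 CPM in the controls (2.75, SE 0.93, adjusted p = 0.243 by limma). Without control replicate 2, where it had no read, the difference was 1.30. Fbxo17 was rare, at 2.04, 1.50 and 1.89 CPM against 1.50 and 0 CPM, and its groups overlapped (0.82, SE 0.59); without control replicate 2 the difference was 0.16.

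Fbxo44 and Fbxo2 are transcribed away from each other, and their start windows are shown because the neighbours lay on opposite sides of 0 in the comparison; Fbxw2 is shown as the member with the smallest unadjusted p among those with an entry. Each is 250 bases before to 50 bases after a RefSeq start (GRCm38.p6), 5′ to 3′ on the strand of the gene, with TGACG, the core of the cAMP response element, in capitals. The windows are chr4:148160045-148160344 on the minus strand for Fbxo44, chr4:148160418-148160717 on the plus strand for Fbxo2 and chr2:34826186-34826485 on the minus strand for Fbxw2. Fbxo44 has 3 RefSeq start windows, and the 2 not shown hold no TGACG.
Fbxo44: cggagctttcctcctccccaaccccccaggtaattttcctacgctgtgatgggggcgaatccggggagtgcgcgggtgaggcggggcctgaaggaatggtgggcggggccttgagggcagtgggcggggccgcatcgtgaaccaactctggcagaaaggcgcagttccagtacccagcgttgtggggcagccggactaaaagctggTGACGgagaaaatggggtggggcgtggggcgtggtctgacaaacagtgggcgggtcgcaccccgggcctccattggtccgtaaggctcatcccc
Fbxo2: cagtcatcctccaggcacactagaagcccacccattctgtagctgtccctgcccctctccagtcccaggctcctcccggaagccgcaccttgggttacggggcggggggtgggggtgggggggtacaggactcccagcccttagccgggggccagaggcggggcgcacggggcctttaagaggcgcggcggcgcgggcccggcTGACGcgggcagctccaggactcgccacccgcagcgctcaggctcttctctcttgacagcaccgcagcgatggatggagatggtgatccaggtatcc
Fbxw2: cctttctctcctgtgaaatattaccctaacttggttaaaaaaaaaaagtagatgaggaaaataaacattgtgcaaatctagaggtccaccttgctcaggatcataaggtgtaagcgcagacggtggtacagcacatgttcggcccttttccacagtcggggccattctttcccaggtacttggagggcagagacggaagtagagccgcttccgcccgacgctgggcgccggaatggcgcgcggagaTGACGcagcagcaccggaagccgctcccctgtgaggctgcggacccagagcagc

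Windows of this kind were found for 43 of the 57 F-box gene names, 62 windows in all, and Fbxo32 and Fbxw4 are among the names with no entry. TGACG, read on either strand, was in 22 of them (35.5%), against 20.8% of 32851 mouse windows of the same length. The full element TGACGTCA, which contains TGACG, was in 1.61% of the F-box windows against 1.79%. The E-box CACGTG was in 8.06% against 7.15%. The letters GTAAACA of a FoxO site were in none of the 62 windows and in 3.65% of all windows. The F-box windows also had a higher median GC content, 60.3% against 52.7%, and these matches are descriptions of the letters only.

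Among the members with known roles in neurons, Fbxo45, Fbxl20, Fbxo41, Fbxl16, Fbxo31, Fbxw8, Fbxo7, Fbxl2 and Fbxo3, 10 rows were listed, 3 had every fear conditioned library higher and 1 lower, beside 21.6% and 14.8% of all genes. Fbxo45, a synaptic F-box protein that works with the large ligase Mycbp2 in axon and synapse development, was at 110, 156 and 107 CPM after fear conditioning and 77.3 and 41.8 CPM in the controls. The groups did not overlap (1.09, SE 0.35, adjusted p = 0.230 by limma), and without control replicate 2 the difference was 0.65. Its partner Mycbp2 lay the other way, at 156, 118 and 145 CPM against 341 and 286 CPM (-1.17, SE 0.23, adjusted p = 0.197). Fbxw8, which joins Cul7 and Obsl1 in a ligase known for shaping dendrites, was at 16.1, 23.7 and 20.2 CPM against 11.8 and 2.69 CPM. That difference was 1.59 (SE 0.66, adjusted p = 0.296), and 0.70 without control replicate 2. Cul7 itself was at 5.83, 10.5 and 6.85 CPM against 10.8 and 29.6 CPM, with both controls higher (-1.16, SE 0.62, adjusted p = 0.388, and -0.48 without control replicate 2). Obsl1 was at 5.50, 10.3 and 8.04 CPM against 3.27 and 3.59 CPM (0.98, SE 0.56, adjusted p = 0.415).

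Fbxl20, or Scrapper, a synaptic member known for the turnover of the vesicle release protein RIM1, was at 29.4, 29.1 and 25.0 CPM after fear conditioning and 30.1 and 87.1 CPM in the controls. Control replicate 1 lay just above the fear conditioned libraries and control replicate 2 far above them (-0.86, SE 0.49, adjusted p = 0.413 by limma), and without control replicate 2 the difference was -0.11. The RIM1 gene Rims1 was at 48.4, 78.6 and 74.7 CPM against 50.8 and 62.4 CPM, and overlapped. The groups also overlapped for Fbxo41, a brain member, with 59.1, 72.8 and 59.6 CPM against 86.7 and 70.6 CPM (-0.30, SE 0.25, and -0.15 without control replicate 1). Fbxo7, mutated in a juvenile parkinsonism, was at 45.9, 58.8 and 60.2 CPM against 58.9 and 32.6 CPM (0.31, SE 0.35, and -0.11 without control replicate 2). Fbxl2, a prenylated member, was at 56.4, 51.1 and 47.4 CPM against 51.6 and 23.5 CPM (0.55, SE 0.39, and -0.0017 without control replicate 2). For Fbxo3 the 91.4, 140 and 106 CPM after fear conditioning stood against 91.5 and 14.8 CPM (1.55, SE 0.71), and without control replicate 2 the difference was 0.27.

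The members known from muscle atrophy, Fbxo32, Fbxo25, Fbxo30, Fbxo21, Fbxo40 and Fbxo31, did not lie on 1 side. Fbxo25, the closest relative of Fbxo32, was at 85.3, 97.2 and 82.2 CPM after fear conditioning and 103 and 7.59 CPM in the controls. Control replicate 1 was above and control replicate 2 far below the fear conditioned libraries, so its difference of 1.57 (SE 0.96, adjusted p = 0.443 by limma) became -0.23 without control replicate 2. Unlike Fbxo32, Fbxo25 was thus well above the floor in both controls. Fbxo30, also called MUSA1, was at 2.66, 7.41 and 4.42 CPM against 4.07 and 14.3 CPM (-0.68, SE 0.73, adjusted p = 0.655, and 0.12 without control replicate 2). Fbxo21, or SMART, was at 157, 239 and 176 CPM against 227 and 204 CPM (-0.20, SE 0.25, adjusted p = 0.712), and ranged from -0.37 to -0.07 with 1 library left out.

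Fbxo31, an F-box gene with roles in cell cycle arrest and neuronal morphology, appears under 2 identifiers whose values went apart in control replicate 2. ENSMUSG00000031811 was at 122, 154 and 117 CPM against 106 and 45.6 CPM (0.89, SE 0.39, adjusted p = 0.317 by limma, and 0.29 without control replicate 2). ENSMUSG00000052934 was at 57.5, 67.8 and 53.5 CPM against 51.7 and 134 CPM (-0.49, SE 0.43, adjusted p = 0.585, and 0.20 without control replicate 2). Only the second identifier is in the gene table used for names, and how reads were divided between the rows is not given in the sources used here, so neither value is taken as the level of the gene.

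Fbxl21 binds the cryptochromes of the circadian clock and can protect them from degradation. It was at 8.49, 5.83 and 5.66 CPM after fear conditioning and 9.62 and 15.7 CPM in the controls, with both controls higher (-0.82, SE 0.54, adjusted p = 0.469 by limma), and without control replicate 2 the difference was -0.49. Of the cryptochromes, Cry1 was at 57.0, 99.1 and 75.3 CPM against 38.5 and 33.0 CPM, with every fear conditioned library higher (1.06, SE 0.32, adjusted p = 0.223). Cry2 was at 116, 158 and 131 CPM against 184 and 173 CPM, with every fear conditioned library lower (-0.41, SE 0.23, adjusted p = 0.406).

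Of 12 members that read signalling degrons in other pathways, 4 had every fear conditioned library higher and 1 lower (21.6% and 14.8% of all genes), with a median log2 fold change of 0.44, or 0.18 without control replicate 2. Fbxw7, which targets Myc, Jun, Notch and cyclin E, was at 184, 176 and 136 CPM after fear conditioning and 139 and 388 CPM in the controls, and overlapped (-0.50, SE 0.44, adjusted p = 0.587 by limma). The Fbxw7 difference was -1.24 without control replicate 1 and 0.24 without control replicate 2. Among those targets, Ccne1 (cyclin E) was at 21.5, 23.0 and 17.8 CPM against 3.07 and 0.105 CPM (3.35, SE 0.70, adjusted p = 0.197). Jun was at 21.1, 29.4 and 16.0 CPM against 11.7 and 2.43 CPM (1.77, SE 0.69, adjusted p = 0.283, and 0.83 without control replicate 2). Myc and Notch1 were low in all libraries and overlapped, at means of 3.27 and 1.21 CPM after fear conditioning. Fbxw11, a β-TrCP protein for β-catenin and IκBα, was at 119, 171 and 119 CPM against 141 and 129 CPM, a difference of -0.01 (SE 0.25). Fbxo11, a ligase for Bcl6, was at 129, 144 and 147 CPM against 111 and 116 CPM. Its groups did not overlap but lay close (0.30, SE 0.21, adjusted p = 0.489), and Bcl6 was at 2.89, 3.29 and 3.23 CPM against 11.6 and 11.6 CPM (-1.61, SE 0.52, adjusted p = 0.233).

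The remaining roles hold few members each, and their counts without overlap stand beside 21.6% of all genes higher and 14.8% lower. Of 7 cell cycle members listed, 1 had every fear conditioned library higher (Fbxl15) and none lower, beside 21.6% and 14.8% of all genes. Among 3 members tied to iron or mitochondria, 1 was lower in every fear conditioned library: Fbxl4, a mitochondrial member mutated in a human mitochondrial DNA depletion syndrome. It was at 33.3, 32.0 and 30.9 CPM against 36.0 and 100 CPM (-0.89, SE 0.46, adjusted p = 0.383 by limma), and without control replicate 2 the difference was -0.16. Fbxl5, the iron sensor that degrades the iron regulatory protein Ireb2, was at 103, 155 and 111 CPM against 118 and 186 CPM (-0.29, SE 0.31, and 0.039 without control replicate 2), and Ireb2 overlapped as well (-0.08, SE 0.36). Of 4 members in chromatin and repair roles, counted with Kdm2a and Kdm2b under their older names Fbxl11 and Fbxl10, 1 (Kdm2b) was higher without overlap. Of the Fbxw genes known mostly from oocytes, only Fbxw17 was listed, at 7.40, 13.2 and 10.7 CPM against 15.2 and 0 CPM.

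Of the 5 core subunits listed, Skp1a, Cul1, Rbx1, Rnf7 and Cul7 (above), 1 was higher (Skp1a) and 1 lower (Cul7) without overlap, beside 21.6% and 14.8% of all genes. Of the 5, 0 passed the adjusted threshold by limma and 0 had an unadjusted p under 0.05, beside 9.49% higher and 7.32% lower of all genes. Skp1a, the adaptor, was the most abundant, at 1048, 980 and 999 CPM after fear conditioning and 851 and 871 CPM in the controls (0.23, SE 0.21, adjusted p = 0.598 by limma). Cul1 was at 105, 123 and 106 CPM against 184 and 114 CPM (-0.38, SE 0.28, and -0.03 without control replicate 1), and Rbx1 at 416, 354 and 338 CPM against 301 and 339 CPM (0.20, SE 0.21, and 0.12 without control replicate 1). The alternative RING protein Rnf7 was at 265, 221 and 249 CPM against 189 and 310 CPM (0.01, SE 0.27), a difference of -0.34 without control replicate 1 and 0.36 without control replicate 2. Of 21 genes of NEDD8 conjugation, cullin exchange and the COP9 signalosome, which switch cullins on and off, 9 had every fear conditioned library higher and 2 lower (21.6% and 14.8% of all genes). With an unadjusted limma p under 0.05 there was 1 (9.49% of all genes tested were higher and 7.32% lower), the cullin neddylation factor Dcun1d1, at 66.3, 113 and 97.2 CPM against 37.1 and 14.3 CPM (1.91, SE 0.47, adjusted p = 0.200, and 1.26 without control replicate 2). Of that list Cops6 had the highest mean, with a difference of 0.86 (SE 0.37), or 0.27 without control replicate 2. Of 13 ubiquitin, E1 and E2 genes, 3 were higher and 1 lower without overlap, beside the same shares of all genes. Cdc34, the E2 enzyme that serves SCF ligases, was at 120, 117 and 103 CPM against 80.8 and 66.4 CPM (0.62, SE 0.23, adjusted p = 0.263). Ube2g2, an E2 of endoplasmic reticulum quality control, was at 192, 273 and 198 CPM against 98.5 and 127 CPM (0.96, SE 0.26, adjusted p = 0.206), and the ubiquitin gene Ubb overlapped (0.28, SE 0.27).

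F-box genes with names outside the rule were few. Of 7 such genes 6 were listed: Btrc, the relative of Fbxw11, was the most abundant at 141, 182 and 148 CPM after fear conditioning and 210 and 172 CPM in the controls (-0.28, SE 0.23, adjusted p = 0.550 by limma, and -0.14 without control replicate 1). Skp2, which degrades the inhibitor p27, was near the floor in places, at 0.569, 3.12 and 2.38 CPM against 1.27 and 0.211 CPM. Ccnf (cyclin F) and Kdm2a overlapped too, with differences of 0.82 (SE 0.94) and -0.71 (SE 0.43), or -0.67 and -0.13 without control replicate 2. Kdm2b, a histone demethylase, was at 5.93, 7.04 and 6.11 CPM against 5.74 and 3.43 CPM (0.43, SE 0.54, adjusted p = 0.710, and 0.12 without control replicate 2). Lrrc29 was at 1.38, 0.042 and 0.149 CPM against 15.5 and 2.22 CPM, lower in every fear conditioned library (-2.36, SE 0.85, and -1.18 without control replicate 1); it passed the filter only through the controls and is given no p.

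Because FoxO factors induce Fbxo32 in muscle, 19 listed genes, the factors Foxo1, Foxo3 and Foxo6 and genes known as FoxO targets or atrophy genes, were read beside it, chosen with earlier results of these data known. They split: 5 had every fear conditioned library higher and 4 lower (21.6% and 14.8% of all genes). Their median log2 fold change was -0.01, with 0.04 without control replicate 1 and 0.08 without control replicate 2. The autophagy gene Gabarapl1, the most abundant, was at 1430, 1277 and 1430 CPM after fear conditioning and 668 and 957 CPM in the controls (0.78, SE 0.26, adjusted p = 0.234 by limma). Map1lc3b (0.77, SE 0.23), Sesn3 (1.40, SE 0.55), Ccng2 (1.38, SE 0.34) and Irs2 (1.77, SE 0.72) were also higher without overlap, with Irs2 at 0.76 without control replicate 2 and Sesn3 at 0.83 without control replicate 1. Among those lower without overlap was Foxo3 itself, at 23.5, 33.4 and 33.8 CPM against 54.9 and 58.1 CPM (-0.90, SE 0.32, adjusted p = 0.251). Klf15, a glucocorticoid-induced factor of muscle atrophy, was at 11.995, 18.2 and 17.4 CPM against 53.2 and 72.6 CPM (-1.92, SE 0.38, adjusted p = 0.197). Bcl6 (above) and Gadd45a (-1.35, SE 0.67, and -0.51 without control replicate 2) completed the 4. In this list 0 genes passed the adjusted threshold by limma, and 5 higher and 3 lower had an unadjusted p under 0.05 (9.49% and 7.32% of all genes tested). Of the 16 listed partners and substrates of F-box proteins, 4 were higher and 3 lower without overlap, beside the 21.6% and 14.8% of all genes, and the calcineurin gene Ppp3ca, a target of Fbxo32 in heart muscle, was the most abundant and overlapped (0.05, SE 0.42, with -0.36 without control replicate 1 and 0.46 without control replicate 2).

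The spread within a group set how far these differences could be read. Between pairs of fear conditioned libraries the median absolute log2 difference over the 58 members was 0.169 to 0.315, and between the controls it was 0.970. Control replicate 1 differed from the fear conditioned libraries by a median of 0.385 to 0.392, and control replicate 2 by 0.954 to 1.06. Members more than 1 log2 unit lower in control replicate 2 than in control replicate 1 numbered 19 (32.8%), against 33.7% of all genes, and members as far above it 10 (17.2%), against 18.6%. The fear conditioned libraries spanned more than 1 log2 unit for 4 members, Fbxo30, Fbxo32, Fbxo40 and Fbxo5, against 8.81% of all genes. Over all genes the median absolute difference between the controls was 1.06.

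**Figure D4:**
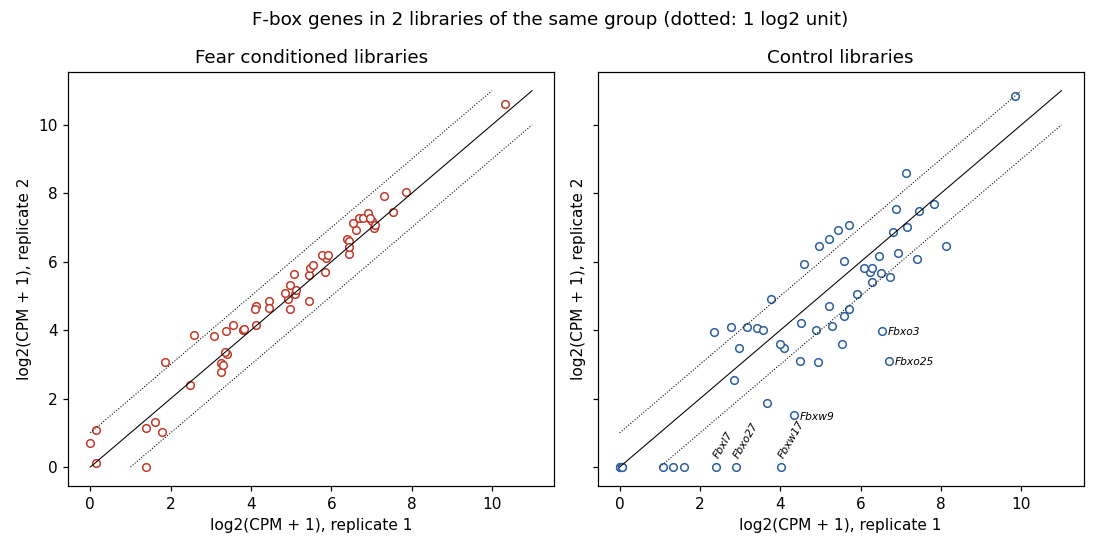
Log2(CPM + 1) of the 58 F-box rows in replicate 1 (x axis) and replicate 2 (y axis) of the fear conditioned group (left) and the control group (right), with the line of equality and dotted lines 1 log2 unit away. The controls scatter widely, and named genes differ by more than 2 log2 units between the replicates.

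Markers of several cell types in the punch differed in level between the groups. The striatal Drd2 neuron markers (7 of 8 listed) summed to 21012, 19462 and 21180 CPM after fear conditioning and 7819 and 12325 CPM in the controls. Penk was the most abundant, none of the 7 was at 0, and 6 had every fear conditioned library higher, beside 21.6% of all genes. Drd2 itself was at 326, 375 and 555 CPM against 128 and 262 CPM. The Drd2 difference was 1.15, with 0.64 without control replicate 1 and 1.66 without control replicate 2. Of this list 0 genes passed the adjusted threshold by limma. The study reported no significant change of Drd2 in these data. The sum of the choroid plexus markers (8 of 8) lay the other way, at 59.4, 111 and 63.1 CPM against 1021 and 1446 CPM. Ttr, most of that sum in the controls, was at 0.522, 22.1 and 0.348 CPM against 913 and 1320 CPM. Of the 8 genes, 4 had every fear conditioned library lower and 0 higher, beside 14.8% and 21.6% of all genes. Clic6 had a difference of 0.08. Without control replicate 1, those of Aqp1, Folr1 and Otx2 were also above 0 (0.064, 0.17 and 0.23). Folr1, Kcnj13 and Aqp1 were at 0 in at least 1 fear conditioned library, and Otx2 and Aqp1 in control replicate 2. Astrocyte markers (8 of 8, Slc1a2 the most abundant, none at 0) summed to 1032, 866 and 1064 CPM against 2198 and 2920 CPM. Of these, 5 had every fear conditioned library lower, beside 14.8% of all genes. Aldh1l1 (0.78) and Gjb6 (1.93) had differences above 0, which were -1.18 and -0.68 without control replicate 2. The median log2 fold change of the list was -0.80, with -0.41 without control replicate 1 and -1.24 without control replicate 2. Oligodendrocyte markers (8 of 8, none at 0) summed to 1889, 1305 and 2765 CPM against 2837 and 5524 CPM.

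Of the smaller lists, microglial markers (8 of 8, Csf1r, none at 0) were at 118, 61.3 and 117 CPM against 127 and 107 CPM. Endothelial and mural markers (8 of 8, Rgs5) were at 41.4, 14.0 and 35.3 CPM against 75.0 and 101 CPM, with Tek at 0 in both controls and Vwf in control replicate 1. Their genes did not move one way, with 2 higher (Cldn5 and Tek) and 2 lower without overlap, beside 21.6% and 14.8% of all genes. Pallial glutamatergic markers (8 of 8, Slc17a7) were at 209, 203 and 65.3 CPM against 403 and 279 CPM. The summed F-box level varied far less, at 4181, 5024 and 4486 CPM against 3936 and 4560 CPM. In such libraries fewer cells of a type, less RNA per cell and other possible sources of these shifts cannot be told apart. What set the shifts, and their part in the F-box differences, was not tested.

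**Figure D5:**
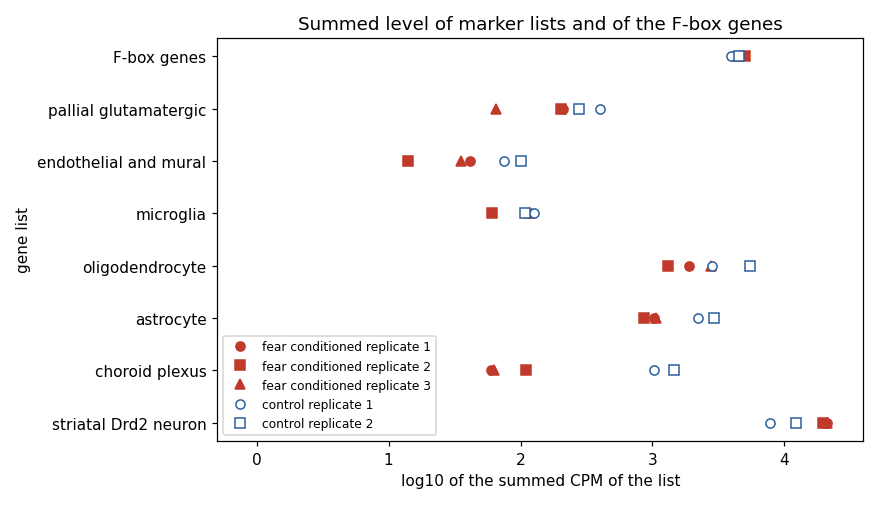
Summed CPM of each marker list and of the 58 F-box rows on a log10 axis (x axis), by list (y axis), in each fear conditioned (red, filled) and control (blue, open) library. The choroid plexus and astrocyte sums are higher in both controls, the Drd2 neuron sum is higher in all fear conditioned libraries, and the F-box sum overlaps.

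Other families of cullin adaptors and the proteasome were read beside the F-box genes, without a test between families; over all genes 21.6% were higher and 14.8% lower without overlap. The 38 Klhl and Kbtbd genes, adaptors of Cul3, had a median log2 fold change of 0.31 (0.11 without control replicate 2), with 11 higher and 3 lower without overlap. The 13 Dcaf genes, adaptors of Cul4, had a median of 0.47 (-0.16 without control replicate 2), with 3 higher and 3 lower. The 19 Asb and Socs genes, adaptors of Cul5 and Cul2, had a median of -0.07 (0 without control replicate 1 and -0.17 without control replicate 2), with 2 higher and 3 lower. The 37 proteasome subunit genes had a median of 0.08 (0.25 without control replicate 1), with 8 higher and 3 lower. None of these genes passed the adjusted threshold by limma, and the counts with an unadjusted p under 0.05 were 3 higher and 1 lower for Klhl and Kbtbd, 2 and 1 for Dcaf, 1 and 1 for Asb and Socs, and 1 and 0 for the proteasome, beside 9.49% and 7.32% of all genes tested.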

How the data were processed

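Ribosome-bound RNA was sequenced from 3 fear conditioned and 2 control libraries, grouped by the sample labels. The authors purified EGFP-tagged ribosomes, made SMARTer and Nextera XT libraries and named Tuxedo and DESeq, with mm8 in the processing notes; the aligner, its version and strand counting are not given in the sources used here. The authors deposited a normalized signal per gene and library (CPM of an effective library size, 15093 genes, each above 1 CPM in at least 1 library) and a gene length. In every library, dividing by its smallest value above 0 gave whole numbers for 100% of values (tolerance 0.01), which served as recovered reads. Per kilobase values use the deposited length (9 lengths were below 0). Rows were joined by identifier, since 43 names repeat; 57 of the 58 F-box identifiers were in a gene table.

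Groups were compared with limma 3.58.1 (eBayes with trend) on log2(CPM + 1), for the 13560 genes with a mean of 1 or more, as a two-sided test adjusted by Benjamini-Hochberg, at cutoffs of an adjusted p of 0.05 and a log2 fold change of 0.5. The log2(CPM + 1) scale understates changes of low genes. Alternatives were pseudocount 0.1, no filter, a value of 1 in every library, quantile and upper quartile scaling, edgeR 4.0.16, DESeq2 1.42.0 (both on recovered reads) and each library left out. Fits were tested on simulated data. Genes named are Fbxo32, members at 3 reads or fewer in all libraries of a group, the 5 highest per kilobase, the 5 largest and 5 smallest log2 fold changes, role lists and list leaders. Members and lists were chosen with earlier results of these data known. Nothing in the sources says whether the pools were independent of each other beyond their animals, so p-values measure only the spread between these libraries. R 4.3.3 and Python 3.11.15 (pandas 2.3.3, scipy 1.17.1, matplotlib 3.10.9) were used. A few genes, 1 of them an F-box gene, are counted in totals and are not reported here by name. The behavioral and in situ data are not analysed here.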

Additional observations from a re-analysis of the deposited data

How the results depend on the processing

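With 2 controls that lie far apart, the F-box results depended most on which control was kept. Leaving out each library in turn gave 0 to 34 members past the adjusted threshold by limma (34 without control replicate 1, 12 without control replicate 2, beside 27.5% of all genes, and 0 without any 1 fear conditioned library), 4 to 35 with an unadjusted p under 0.05, 19 to 51 without overlap (60.5%, 65.4% and 86.4% of all genes for these 3 counts without control replicate 1, and for the lowest counts 7.03% and 6.51% with an unadjusted p without fear conditioned replicate 2 or 3 and 40.2% without overlap without fear conditioned replicate 3), all counted with Fbxo32, which fixed the choice of the family, and with Fbxw4 and Fbxo17, which passed the filter only through the fear conditioned libraries, and a median log2 fold change of 0.12 to 0.57. With 1 control left, that library is assumed to vary like the fear conditioned ones. Fbxw4 and Fbxo17 are named for the filter over all libraries. Without control replicate 1, Fbxo27, Fbxw17 and Fbxl8, at 0 CPM in control replicate 2, also passed it only through the fear conditioned libraries. Without control replicate 2, Fbxo17 was at 1.50 CPM in the kept control, and Fbxl7, at 4.31 CPM there, passed only through that control. The filter thus fixed part of the counts with 1 control left, and no conclusion is drawn from them. DESeq2 called 4 members (and 7.96% of all genes) against 0 in limma, of which Fbxo32 (the choice of the family) and Fbxw4 (the filter) were fixed beforehand and 2 remain, and a value of at least 1 CPM in every library left 6 with an unadjusted p under 0.05 against 10, or 8 without Fbxo32 and Fbxw4, with 47 members tested (18.4% of all genes against 16.8%); the cause was not tested. Upper quartile scaling moved the median of all genes from 0.08 to 0.31 and DESeq2 to -0.11, and the median of the members from 0.32 to 0.57 and 0.21. Fbxw11 changed sign under quantile normalization (0.0048), upper quartile scaling (0.26) and edgeR (0.020), and Fbxo21 under upper quartile scaling (0.073). Of the 158 values of single named genes under another pseudocount, scaling or tool, 151 kept their direction and their side of the threshold. With 1 library left out, differences changed sign within these ranges: Fbxw11 -0.18 to 0.084, Fbxl7 -2.28 to 0.13, Fbxl16 -0.33 to 0.68, Fbxo9 -0.21 to 1.47, Fbxo31 (ENSMUSG00000052934) -1.17 to 0.20, Fbxo25 -0.23 to 3.37, Fbxo30 -1.47 to 0.12, Fbxo7 -0.11 to 0.73, Fbxl2 -0.0017 to 1.099, Fbxw7 -1.24 to 0.24 and Fbxl5 -0.62 to 0.039. Fbxo32 lay between 3.22 and 3.85 and Fbxw4 between 3.08 and 3.24 with 1 library left out; with controls at or near 0 their fitted size depends on the prior, at 6.61, 10.93 and 10.40 for Fbxo32 and 6.13, 8.38 and 8.60 for Fbxw4 under pseudocount 0.1, edgeR and DESeq2. A count of 0 in the controls is limited by the 3-read floor. The cause of the distance between the controls was not tested.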
